A study of Homo sapiens with 65 samples.

Results

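The 8 genes described here encode parts of the dystrophin complex and of the machinery that reseals the muscle cell membrane: DMD, UTRN, DYSF, DAG1, SGCB, SGCD, SGCE and CAV3. They are 8 of the 58735 genes counted in 65 RNA-seq libraries. The cells were left-ventricular cardioids, heart-like aggregates grown from human pluripotent stem cells. The genes were listed by name and selected on CPM (counts per 1000000 counts of a library) of these libraries: DYSF was chosen by its values at day 4.5 in both arms of the study, and DMD by its lower values under late hyaluronidase. Values from those comparisons are therefore given as a description, with no test, and tests are given for the other comparisons.

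The study asked what hyaluronan, a sugar polymer of the extracellular matrix, does in cardioids. All libraries came from the established induced pluripotent stem cell line WTC-11 or lines derived from it, and each library was made from 8 pooled cardioids. The genotype arm held 41 libraries. Wild-type lines (WT) gave 5, 6, 6 and 3 libraries at days 1.5, 2.5, 4.5 and 7.5, and clones labelled HAS2-KO (KO), in which a hyaluronan synthase gene is the stated target, gave 6, 6, 6 and 3. The wild-type lines are named WT, WT_TU, cl43_WT_UT or TNT2. The KO clones are named cl4, cl14, cl46 or cl51, and R1 to R3 mark repeats of a line or clone. The enzyme arm held 24 libraries of wild-type genotype, 3 in each of 8 groups: untreated at days 2.5, 4.5 and 7.5, hyaluronidase from day 1.5 onwards (early enzyme) at days 2.5, 4.5 and 7.5, and hyaluronidase from day 2.5 onwards (late enzyme) at days 4.5 and 7.5. The 3 libraries of each enzyme-arm group came from lines named TNNI1, WT and TNNT2, and the same lines recur in every group. The enzyme's dose is not given in the sources used here. Libraries of 1 line are repeats of that line, and p-values measure the spread between these libraries.

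Dystrophin, the product of DMD, ties the actin cytoskeleton under the muscle cell membrane to dystroglycan, which spans the membrane and holds laminin in the matrix outside. Sarcoglycans sit beside dystroglycan and steady this link, and utrophin is a relative of dystrophin found in many cell types and in immature muscle. Dysferlin, the product of DYSF, brings vesicles to membrane tears and helps to patch them, and caveolin-3 shapes the small membrane pits of muscle cells. Loss of dystrophin or of a sarcoglycan leaves heart and skeletal muscle open to damage during contraction and can cause cardiomyopathy.

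Positions are from GENCODE 29 on GRCh38. DMD (ENSG00000198947) lies on chromosome X from 31097677 to 33339441 on the minus strand, UTRN (ENSG00000152818) on chromosome 6 from 144285701 to 144853034 on the plus strand, and DYSF (ENSG00000135636) on chromosome 2 from 71453722 to 71686768 on the plus strand. DAG1 (ENSG00000173402) lies on chromosome 3 from 49468703 to 49535618 on the plus strand and SGCB (ENSG00000163069) on chromosome 4 from 52020706 to 52038482 on the minus strand. SGCD (ENSG00000170624) lies on chromosome 5 from 155870344 to 156767788 on the plus strand, SGCE (ENSG00000127990) on chromosome 7 from 94524204 to 94656572 on the minus strand, and CAV3 (ENSG00000182533) on chromosome 3 from 8733800 to 8841808 on the plus strand. The library kit reads the 3′ ends of transcripts, so a count does not tell which start site or exons a transcript has. Of 20 coding transcripts of DMD in the annotation, 10 end within 100 bases of one another and have 8 different starts, so the full-length muscle form and shorter forms with the same end are counted together. SGCE overlaps CASD1 and PEG10, and CAV3 overlaps SSUH2, OXTR and RAD18, all on the opposite strand. None of these genes covers an annotated coding transcript end of SGCE or CAV3.

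The promoters of DMD, DYSF and UTRN are shown because these are the 3 genes that fell together under early enzyme at day 7.5. Each sequence is the 250 bases before a transcription start in RefSeq on GRCh38.p14, read 5′ to 3′ on the gene's strand, with a CArG box in capitals. A CArG box is the motif bound by serum response factor, a regulator of muscle genes. RefSeq promoters were found for 7 of the 8 genes, with 7 of them for DMD, of which the start of the muscle transcript is shown.
DMD, chrX:33211550-33211799, minus strand: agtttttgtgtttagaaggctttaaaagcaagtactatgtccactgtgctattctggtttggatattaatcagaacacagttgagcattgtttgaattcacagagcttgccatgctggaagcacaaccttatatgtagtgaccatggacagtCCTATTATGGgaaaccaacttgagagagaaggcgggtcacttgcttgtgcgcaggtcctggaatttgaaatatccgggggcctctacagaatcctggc
DYSF, chr2:71453311-71453560, plus strand: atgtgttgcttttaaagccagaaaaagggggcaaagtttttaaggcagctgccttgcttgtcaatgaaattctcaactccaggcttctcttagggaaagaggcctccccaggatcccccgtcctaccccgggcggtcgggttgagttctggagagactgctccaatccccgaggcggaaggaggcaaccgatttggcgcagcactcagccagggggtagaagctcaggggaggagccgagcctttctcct
UTRN, chr6:144285085-144285334, plus strand: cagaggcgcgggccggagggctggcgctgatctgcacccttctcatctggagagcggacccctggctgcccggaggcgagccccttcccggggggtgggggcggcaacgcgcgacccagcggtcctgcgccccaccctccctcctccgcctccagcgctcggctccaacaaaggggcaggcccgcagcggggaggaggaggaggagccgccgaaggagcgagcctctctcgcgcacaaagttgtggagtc
Of 35116 RefSeq promoter windows of this length, 1.16% held a CArG box on either strand. The DMD window held 1 and the other pair held none. Both strands were also searched for 5 other motifs. The core of GATA factor sites, GATAA, occurred in 20.4% of windows. The core of TEAD factor sites, CATTCC, occurred in 11.9%, the MEF2 motif in 0.515% and the TATA box TATAAA in 10.7%. None of these 4 occurred in the DMD, DYSF or UTRN window. The E-box, CANNTG, occurred in 61.8% of windows, with 2 matches in the DMD window and 1 each in the DYSF and UTRN windows. The UTRN window was 73.2% G and C, and the DYSF window 56.4%. A match is a description of the letters only.

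Total counts per library ranged from 831062 to 3574843, with a median of 1570954. HAS2, the gene named in the KO labels, had 197 ± 91.6 CPM (SD, n = 5) in WT and 165 ± 71.0 CPM (SD, n = 6) in KO at day 1.5, 657 ± 192 CPM (SD, n = 6) in WT and 582 ± 174 CPM (SD, n = 6) in KO at day 2.5, 339 ± 133 CPM against 351 ± 74.5 CPM at day 4.5 (6 libraries each, SD) and 271 ± 88.5 CPM against 315 ± 56.3 CPM at day 7.5 (3 libraries each, SD). A 3′ count outside a deleted part does not check the label. The summed level of 10 cardiomyocyte markers had a median of 124 CPM in WT at day 1.5, with TNNI1 and MYH7 at 0 counts, 42899 CPM at day 4.5 and 69432 CPM at day 7.5. The labels call days 1.5 to 4.5 cardiac progenitors and day 7.5 cardiomyocytes. Of the skeletal muscle markers, MYOD1, MYF5 and MYOG had 0 counts in every group at days 4.5 and 7.5.

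The 7 deepest libraries stood apart in several of these genes. They had 2724349 to 3574843 counts, against at most 2142900 in the other 58, and all were R1 libraries of WT, WT_TU or cl4 from days 1.5 to 4.5, which carry 1 run of library numbers (block A). UTRN had 17.9 to 59.4 CPM in these 7 and at least 107 CPM in each of the others. DYSF had 247 and 306 CPM in the pair of them at day 4.5, against 85.7 to 137 CPM in the other 4 WT libraries of that day. For several results of the genotype arm a fit without block A, or the values by block, are also given.

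**Figure D1:**
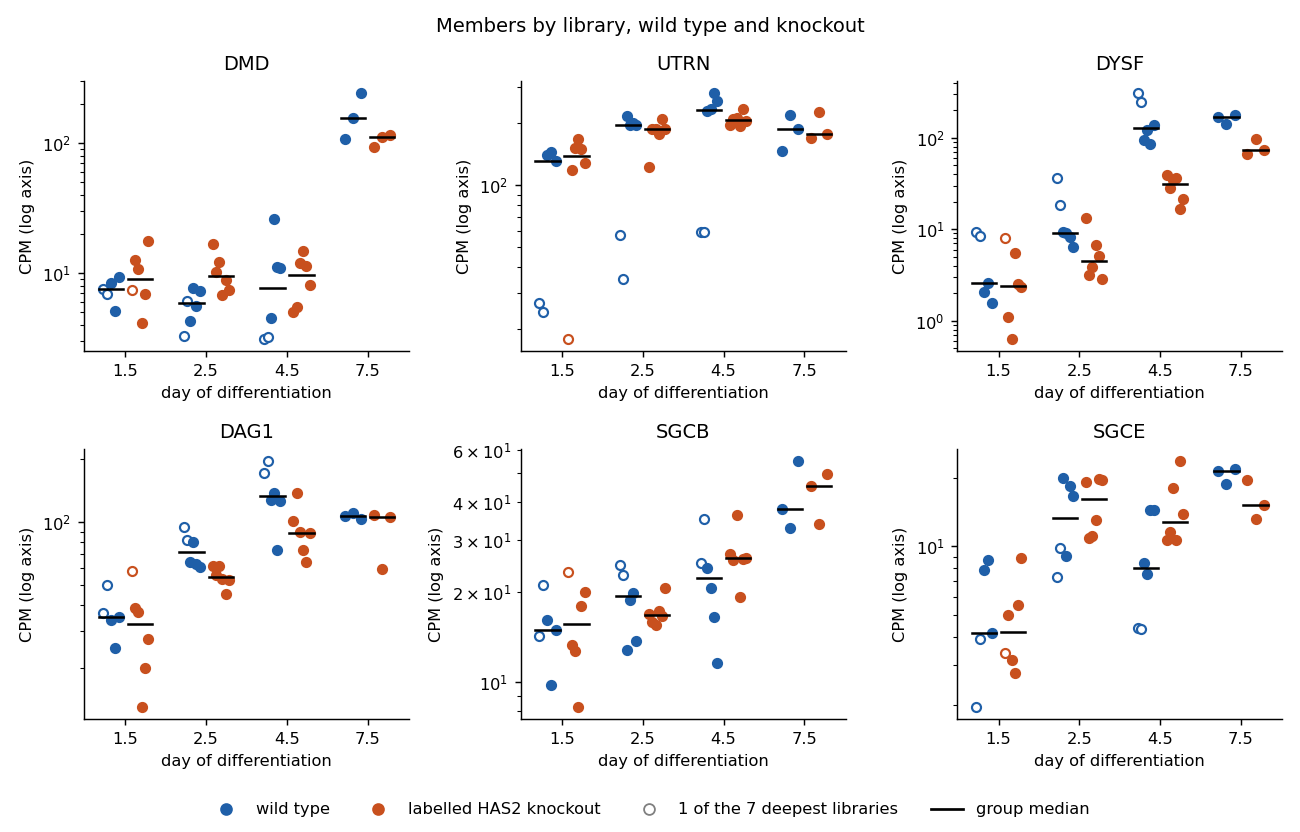
CPM (log axis) of 6 genes in each library of the genotype arm by day, WT in blue and KO in orange, with group medians as bars and the 7 deepest libraries as open symbols. The open UTRN symbols lie between 17.9 and 59.4 CPM, under all others. DMD lies between 93.1 and 242 CPM at day 7.5 in both genotypes, and DYSF of the KO libraries lies under WT at day 4.5.

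CAV3, the muscle caveolin, had 0 counts in all 65 libraries. That allows up to 0.0264 CPM over all libraries together, and 0.839 to 3.61 CPM in a single library (3 counts, counting error only). SGCD, the delta sarcoglycan of heart and skeletal muscle, had 24 counts in all, in 18 of 65 libraries, and never more than 4 in 1 library. Neither passed the filter on low counts, so 6 of the 8 genes entered the fits, and no difference of CAV3 or SGCD could be detected at this depth.

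DMD was at a low level until day 4.5 and then rose steeply in WT. The 5 libraries of day 1.5 had 5.13, 6.92, 7.55, 8.35 and 9.30 CPM. The lowest, median and highest values were 3.30, 5.89 and 7.68 CPM at day 2.5, and 3.12, 7.77 and 26.3 CPM at day 4.5. At day 7.5 the 3 WT libraries had 109, 158 and 242 CPM. The day 7.5 libraries all lay above the day 4.5 libraries, and the rise was 18.1-fold (log2 fold change 4.18, SE 0.39, edgeR quasi-likelihood test with Benjamini-Hochberg adjusted p = 5.16e-09). The steps from day 1.5 to 2.5 (−0.59, SE 0.40) and from day 2.5 to 4.5 (0.76, SE 0.38) did not pass (edgeR adjusted p = 0.279 and 0.125). Without block A the second of these was 1.08 (edgeR adjusted p = 0.0284, range over the alternatives 0.0284 to 0.76).

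In untreated cardioids of the enzyme arm DMD rose at both steps. Lines TNNI1, WT and TNNT2 had 4.09, 2.68 and 5.05 CPM at day 2.5, 24.6, 12.4 and 21.6 CPM at day 4.5, and 209, 170 and 231 CPM at day 7.5. The 3 days did not overlap, and each step went up in 3 of 3 lines. The rise from day 2.5 to 4.5 was 4.38-fold (log2 2.13, SE 0.44, edgeR adjusted p = 0.00097) and that from day 4.5 to 7.5 was 11.1-fold (log2 3.48, SE 0.35, edgeR adjusted p = 8.67e-07). Steps that start or end at day 4.5 share libraries with the comparisons that chose DYSF and DMD.

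DYSF rose earlier than the last DMD step. WT libraries had 9.23, 8.43, 2.09, 2.56 and 1.55 CPM at day 1.5, of which the first and second are block A libraries, and 6.39, 9.17 and 36.0 CPM (lowest, median, highest) at day 2.5. At day 4.5 they had 85.7, 129 and 306 CPM, and at day 7.5 the 3 libraries had 143, 169 and 178 CPM. All day 4.5 libraries lay above all day 2.5 libraries, a rise of 11.4-fold (log2 3.51, SE 0.43, edgeR adjusted p = 1.91e-08). Outside block A DYSF had 6.39 to 9.27 CPM at day 2.5 and 85.7 to 137 CPM at day 4.5. The day 4.5 libraries are also the reference of the KO comparison that chose DYSF. This p-value is thus not independent of that choice. The step from day 1.5 to 2.5 overlapped between days and passed narrowly (log2 1.29, SE 0.49, edgeR adjusted p = 0.0405). It no longer passed in 7 of its 17 alternatives (adjusted p 0.000658 to 0.238), among them those without WT_R1 or WT_TU_R1 at day 2.5 and without WT_R2, cl43_WT_UT or TNT2 at day 1.5, and its log2 value ranged from 0.77 to 1.80. From day 4.5 to 7.5 the WT value was −0.01 (SE 0.47). It changed sign in 8 of its 15 alternatives and passed in none. The block A libraries of day 4.5 had 247 and 306 CPM, above all day 7.5 libraries. The other WT libraries of day 4.5 had 85.7 to 137 CPM, under all 3 of day 7.5.

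Untreated enzyme-arm libraries had 6.64, 11.6 and 20.7 CPM of DYSF at day 2.5 in lines TNNI1, WT and TNNT2, 96.2, 80.8 and 50.8 CPM at day 4.5, and 127, 151 and 213 CPM at day 7.5. Again the days did not overlap. The rise from day 2.5 to 4.5 was 5.31-fold (log2 2.41, SE 0.44, edgeR adjusted p = 0.000368). Its day 4.5 libraries are also the reference of the early enzyme comparison that chose DYSF, so the test is not independent of that choice. The difference from day 4.5 to 7.5 (log2 1.23, SE 0.38) did not pass (edgeR adjusted p = 0.0561, range over the alternatives 0.000368 to 0.242).

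DAG1 encodes both subunits of dystroglycan. It had 25.1, 33.9, 35.1, 36.6 and 50.0 CPM in WT at day 1.5, 61.0, 72.2 and 94.3 CPM (lowest, median, highest) at day 2.5 and 73.8, 133 and 195 CPM at day 4.5. All day 2.5 libraries lay above all day 1.5 libraries. DAG1 rose at both steps (log2 0.81, SE 0.27, edgeR adjusted p = 0.0181, and log2 0.96, SE 0.25, edgeR adjusted p = 0.0022), and the first was lost without cl43_WT_UT of day 1.5 (edgeR adjusted p = 0.0603, range 0.000884 to 0.0603). In untreated enzyme-arm libraries DAG1 had 109, 91.5 and 113 CPM at day 4.5 and 39.3, 90.0 and 9.64 CPM at day 7.5, so that line TNNT2 was far under line WT at the later day. This step did not pass (log2 −1.06, SE 0.58, edgeR adjusted p = 0.265).

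The epsilon sarcoglycan gene SGCE, which is expressed in many tissues outside muscle, had a median of 4.13 CPM in WT at day 1.5 and 13.3 CPM at day 2.5 and rose at that step (log2 1.19, SE 0.35, edgeR adjusted p = 0.00835). The beta sarcoglycan gene SGCB had medians of 15.0, 19.4 and 22.4 CPM at days 1.5, 2.5 and 4.5 in WT, and 32.8, 38.0 and 55.0 CPM in the 3 libraries of day 7.5. From day 4.5 to 7.5 the log2 values were 1.29 (SE 0.38) for SGCE and 0.92 (SE 0.28) for SGCB, and neither passed (edgeR adjusted p = 0.0511 and 0.0698). With line and R number as a replicate block both passed (SGCE log2 1.65, adjusted p = 0.00164, and SGCB log2 0.90, adjusted p = 0.0388), and the count of the 6 genes called at this step went from 1 to 3. Over the alternatives the adjusted p ranged from 0.00164 to 0.198 for SGCE and from 0.00493 to 0.453 for SGCB.

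UTRN differed between the deep libraries and the others more than between days. Outside the deep libraries WT had 131 to 146 CPM at day 1.5, 196 to 216 CPM at day 2.5 and 229 to 279 CPM at day 4.5, and these days did not overlap. At day 7.5 the 3 WT libraries had 146, 187 and 218 CPM. With all libraries in the fit no step passed. Without block A, whose deep libraries hold the low values, the steps to day 2.5 (log2 0.41, edgeR adjusted p = 0.0103) and to day 4.5 (log2 0.30, edgeR adjusted p = 0.0303) passed. Adjusted p ranged up to 0.699 and 0.845 over the alternatives of these steps.

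Of the 6 genes tested, 3 were higher at day 2.5 than at day 1.5 in WT, where 30.1% of all genes tested were called. At the step to day 4.5, 2 were higher beside 34.5% of all genes, and at the step to day 7.5, 1 was higher beside 2.7%. In untreated enzyme-arm libraries 2 were higher at day 4.5 beside 23% of all genes, and 1 at day 7.5 beside 6.39%. None was lower at any of these 5 steps. Those that touch day 4.5 use libraries of the comparisons that chose DYSF and DMD, so their counts are not independent of that choice.

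The comparison of KO with WT asked what loss of the hyaluronan synthase changes. At day 4.5, a comparison used to choose DYSF, 3.74% of all genes tested were called. DYSF had 16.7, 31.5 and 39.6 CPM (lowest, median, highest) in KO against 85.7, 129 and 306 CPM in WT. No KO library reached the lowest WT library, and the log2 fold change was −2.57 (SE 0.41), or 5.94-fold lower in KO. Within block A the KO library had 39.6 CPM against 247 and 306, within block B 28.1 against 93.8 and 120, and within block C 16.7 to 36.3 against 85.7 and 137. The log2 values of the other 5 genes on this day lay between −0.67 (DAG1) and 0.69 (SGCE).

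On the days that did not choose the genes, no member passed. At day 1.5, 0% of all genes were called (0 of 13797, with 591 at an unadjusted p under 0.05 and 0 by DESeq2), and none of the 6 was under 0.05 unadjusted. At day 2.5, 0.993% of all genes were called and DYSF alone of the 6 was under 0.05 unadjusted, with none called by DESeq2. KO libraries had 2.87, 4.50 and 13.2 CPM of DYSF against 6.39, 9.17 and 36.0 CPM in WT (lowest, median, highest), with overlap, and the log2 fold change was −1.52 (SE 0.49, 95% interval −2.52 to −0.52, edgeR adjusted p = 0.156). The highest KO value is that of cl4_R1, a block A library. Within each block every KO library lay below every WT library of that block except in C, where the highest KO value, 6.79 CPM, lay above the lowest WT value, 6.39 CPM.

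At day 7.5, 0.348% of all genes were called and none of the 6 genes, either by DESeq2 or at an unadjusted p under 0.05. DYSF had 67.0, 73.7 and 96.1 CPM in the KO libraries and 143, 169 and 178 CPM in the WT libraries, which did not overlap. The log2 fold change was −1.08 (SE 0.55, 95% interval −2.20 to 0.03) and did not pass (edgeR adjusted p = 0.93). It passed without block A (−1.05, edgeR adjusted p = 0.0412) and in a fit of these 6 libraries alone (−1.07, edgeR adjusted p = 0.00238), and the adjusted p ranged from 0.00238 to 1 over its 12 alternatives. Only block B held both genotypes at day 7.5, with 1 KO library at 67.0 CPM and 2 WT libraries at 143 and 178 CPM.

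DMD had 93.1, 113 and 117 CPM in KO and 109, 158 and 242 CPM in WT at day 7.5. The groups overlapped, and the log2 fold change was −0.69 (SE 0.44, 95% interval −1.57 to 0.20). At day 2.5 the DMD value was 0.77 (SE 0.39), with 6.79, 9.56 and 16.8 CPM in KO (lowest, median, highest) against 3.30, 5.89 and 7.68 CPM in WT. The change of the KO effect from day 2.5 to 7.5 was −1.46 for DMD (SE 0.58) and did not pass (edgeR adjusted p = 0.604). No member passed for that change, where 0.268% of all genes did (1 of 6 at an unadjusted p under 0.05, 0 by DESeq2).

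UTRN did not pass on any day, with log2 values of KO against WT from 0.02 to 0.39. They changed sign in 1, 3 and 4 of their alternatives at days 2.5, 4.5 and 7.5. At days 2.5 and 4.5 the deep libraries, with their low UTRN, were all WT. Outside block A UTRN had 177 to 211 CPM in KO and 196 to 216 CPM in WT at day 2.5. At day 4.5 it had 194 to 235 CPM in KO and 229 to 279 CPM in WT there, so both days overlapped. DAG1 had log2 values of −0.17, −0.48 and −0.27 at days 1.5, 2.5 and 7.5, SGCB of 0.04, −0.19 and 0.00, and SGCE of −0.11, 0.16 and −0.42, and none passed. The widest 95% interval among these 9 values ran from −1.30 to 0.47 (SGCE at day 7.5).

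**Figure D2:**
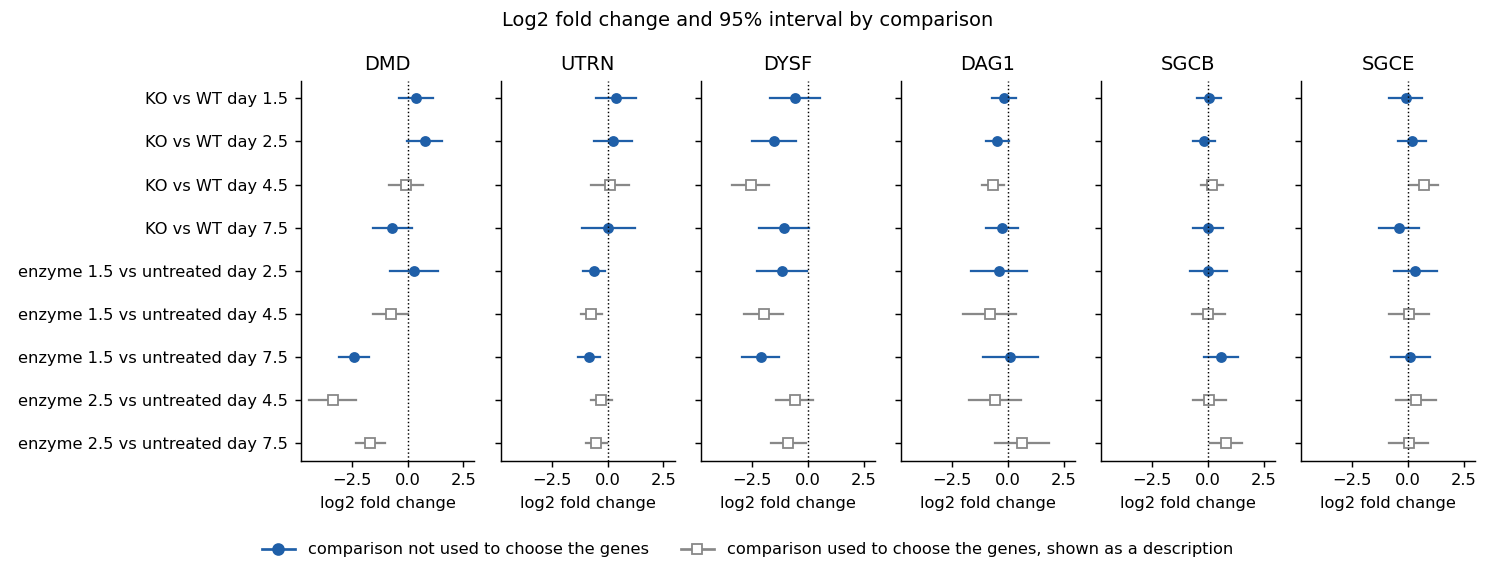
Log2 fold changes (points) and 95% intervals (lines) of 6 genes for KO against WT and for early (enzyme 1.5) and late (enzyme 2.5) hyaluronidase against untreated. Filled circles are comparisons not used to choose the genes and open squares are those used. DYSF is below 0 in all 9 rows, and DMD reaches −2.41 under early enzyme at day 7.5.

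Early enzyme was compared with untreated cardioids to follow removal of hyaluronan from day 1.5. At day 7.5 DMD, DYSF and UTRN were lower than in untreated cardioids. DMD had 43.2, 28.8 and 52.3 CPM in lines TNNI1, WT and TNNT2 against 209, 170 and 231 CPM untreated. The treated libraries were at 0.169 to 0.227 of the untreated library of the same line, with no overlap between groups. The fall was 5.30-fold (log2 −2.41, SE 0.32, edgeR adjusted p = 0.000107). Its untreated libraries are also the reference of the late enzyme comparison that chose DMD. This p-value and its alternatives are thus not independent of that choice.

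DYSF had 27.7, 40.3 and 54.4 CPM under early enzyme at day 7.5 against 127, 151 and 213 CPM untreated, in the same order of lines. Again no treated library reached an untreated one, and the 3 line ratios lay between 0.219 and 0.266. DYSF fell 4.33-fold (log2 −2.11, SE 0.40, edgeR adjusted p = 0.00381). Both calls held in all 11 alternatives, with the log2 value between −2.62 and −2.19 for DMD and between −2.39 and −1.85 for DYSF.

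UTRN had 141, 185 and 198 CPM under early enzyme and 356, 233 and 283 CPM untreated. The groups did not overlap, and the fall was 1.80-fold (log2 −0.85, SE 0.23, edgeR adjusted p = 0.0451). This call was lost in 5 of 11 alternatives (adjusted p 0.00349 to 0.226): without the untreated library of line TNNI1 or TNNT2, without the treated library of line TNNI1 or WT, and in a fit of these 6 libraries alone. Of the 6 genes 3 were lower and none higher, where 3.33% of all genes were called. The untreated day 7.5 libraries are also the reference of the late enzyme comparison that chose DMD, so this count is not independent of that choice.

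DAG1, SGCB and SGCE did not pass at day 7.5. DAG1 had 81.5, 63.3 and 18.1 CPM under early enzyme against 39.3, 90.0 and 9.64 CPM untreated, and SGCB had 48.9, 38.8 and 20.9 CPM against 23.2, 33.8 and 9.64 CPM. For both genes line TNNT2 was the lowest in each group. SGCB was higher under enzyme in 3 of 3 lines (1.15 to 2.17 times the untreated library of the same line), and DAG1 in 2 of 3 lines. The log2 values were 0.10 for DAG1 (95% interval −1.13 to 1.33), 0.58 for SGCB (−0.16 to 1.32) and 0.08 for SGCE (−0.79 to 0.96).

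**Figure D3:**
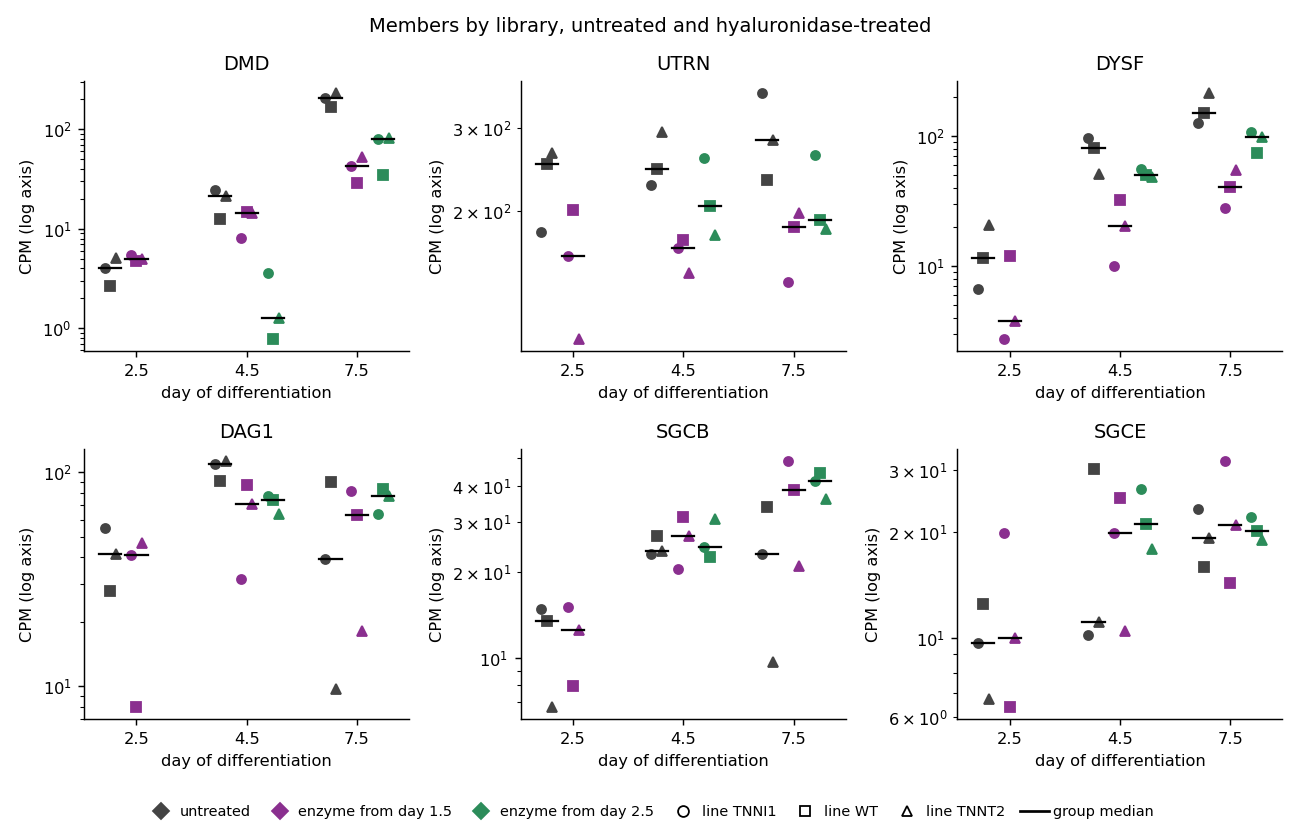
CPM (log axis) of 6 genes in each library of the enzyme arm by day, with colour for treatment, symbol for cell line and bars for group medians. At day 7.5 the early enzyme libraries of DMD (28.8 to 52.3 CPM) and DYSF (27.7 to 54.4 CPM) lie under all untreated ones. DMD of the late enzyme libraries at day 4.5 lies between 0.781 and 3.59 CPM.

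At day 2.5, after 1 day of enzyme, none of the 6 genes passed, beside 1.15% of all genes (2 of the 6 at an unadjusted p under 0.05, UTRN and DYSF, and 0 by DESeq2). DYSF had 2.75, 12.0 and 3.75 CPM under enzyme against 6.64, 11.6 and 20.7 CPM untreated, so that line WT showed no fall (log2 −1.16, SE 0.55, edgeR adjusted p = 0.522). UTRN had 161, 201 and 107 CPM against 181, 252 and 266 CPM (log2 −0.61, SE 0.23, edgeR adjusted p = 0.319). DMD had 5.49, 4.79 and 5.00 CPM against 4.09, 2.68 and 5.05 CPM (log2 0.28, SE 0.52).

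In the main fit the early enzyme effect on DMD differed between days 2.5 and 7.5. The untreated day 7.5 libraries are also the reference of the late enzyme comparison that chose DMD. This result is thus not independent of that choice. The change was −2.69 on the log2 scale (SE 0.62, edgeR adjusted p = 0.0292), and DMD was the 1 member called for it, beside 1.13% of all genes. It was lost in 8 of 16 alternatives, each of which left out 1 library (adjusted p 0.000341 to 0.0921, log2 value −2.90 to −2.47). These were the untreated or treated libraries of line TNNI1 at either day, the untreated library of line WT at day 2.5, its treated library at day 7.5, and the treated day 2.5 and untreated day 7.5 libraries of line TNNT2. For DYSF the change was −0.95 (SE 0.70) and for UTRN −0.24 (SE 0.33), and neither passed (edgeR adjusted p = 0.63 and 0.83).

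Day 4.5 under early enzyme was used to choose DYSF, and 3.48% of all genes were called there. DYSF had 9.93, 32.0 and 20.4 CPM in lines TNNI1, WT and TNNT2 against 96.2, 80.8 and 50.8 CPM untreated (log2 −1.98, SE 0.42). UTRN had 167, 174 and 148 CPM against 227, 246 and 295 CPM (log2 −0.73, SE 0.23), and DMD had 8.07, 14.7 and 14.6 CPM against 24.6, 12.4 and 21.6 CPM (log2 −0.76, SE 0.38). DYSF and UTRN did not overlap between groups, and DMD did. All 3 of these values lie below 0.

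Late enzyme was the comparison that chose DMD. At day 4.5, where 0.22% of all genes were called, DMD had 3.59, 0.781 and 1.28 CPM in lines TNNI1, WT and TNNT2, which are 5, 1 and 2 counts, against 24.6, 12.4 and 21.6 CPM untreated. The mean of these 3 libraries was the lowest DMD mean of the 16 groups, with a log2 fold change of −3.36 (SE 0.51), or 10.3-fold lower. DYSF had 56.1, 50.0 and 48.7 CPM in the same libraries, under the untreated value of the same line in 3 of 3 lines, but with overlap between groups (log2 −0.59, SE 0.39). UTRN had 259, 205 and 178 CPM (log2 −0.29, SE 0.23).

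At day 7.5 under late enzyme, where 0.659% of all genes were called, DMD had 80.3, 34.9 and 82.5 CPM against 209, 170 and 231 CPM (log2 −1.68, SE 0.31). DMD in these libraries was far above its day 4.5 values and below every untreated library. DYSF had 107, 73.8 and 98.2 CPM against 127, 151 and 213 CPM (log2 −0.88, SE 0.38). SGCB had 41.5, 44.3 and 36.0 CPM against 23.2, 33.8 and 9.64 CPM untreated (log2 0.81, SE 0.36), the only member of the 6 above all untreated libraries.

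Early and late enzyme were also set side by side, with no test of the members. At day 4.5 DMD was lower under late than under early enzyme in 3 of 3 lines, with 0.781 to 3.59 CPM against 8.07 to 14.7 CPM, and the log2 fold change of early against late was 2.60 (SE 0.53) where 0.361% of all genes were called. DYSF stood the other way round, with 9.93 to 32.0 CPM under early and 48.7 to 56.1 CPM under late enzyme (log2 −1.39, SE 0.43). At day 7.5, where 0.00784% of all genes were called (1 gene), the log2 values were −0.73 (SE 0.32) for DMD and −1.24 (SE 0.40) for DYSF. DYSF of the late enzyme libraries, 73.8 to 107 CPM, lay above all early enzyme libraries.

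Cardiomyocyte markers moved with several of these results. Their sum was 31500 to 35597 CPM under early enzyme at day 7.5 against 66065 to 74015 CPM untreated, and 3 of 10 passed by edgeR, all lower (MYL7 log2 −3.22, MYH7 −2.89 and ACTN2 −2.11). MYL7 was lost without the treated library of line TNNI1 or WT or the untreated one of line TNNT2 (adjusted p 0.000311 to 0.098). The marker sum was 5349 to 19881 CPM under early enzyme at day 4.5 against 25910 to 50591 CPM untreated. Under late enzyme the sum was 19223 to 34096 CPM at day 4.5 and 40831 to 65576 CPM at day 7.5. In the genotype arm it was 16527 to 43957 CPM in KO and 34711 to 62858 CPM in WT at day 4.5, and 59350 to 67244 CPM against 62280 to 70618 CPM at day 7.5, where 0 of 10 passed by edgeR. No marker of the 10 was at 0 in these groups of days 4.5 and 7.5. At day 2.5, 5 of 10 were lower in KO by edgeR, with MYH7 at 0 in both genotypes. In bulk libraries fewer cells of a type and less RNA per cell cannot be told apart, and the part of these markers in the results was not tested.

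Each library's value can be set against its own marker sum. DMD had 2.57 to 3.12 CPM per 1000 CPM of cardiomyocyte markers in untreated libraries at day 7.5, 0.833 to 1.47 under early and 0.855 to 1.74 under late enzyme. At day 4.5 it had 0.391 to 0.832 untreated, 0.739 to 1.58 under early and 0.028 to 0.105 under late enzyme. The late enzyme libraries of DMD lay below the untreated ones on both days on this scale too, whereas those of early enzyme lay below at day 7.5 and partly above at day 4.5. Late enzyme values are those that chose DMD, so their ratios are a description and no further support.

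On the same scale DYSF had 1.90 to 2.54 in untreated and 1.61 to 2.21 under early enzyme at day 4.5, which overlap, although the CPM did not. At day 7.5 it had 1.75 to 2.88 untreated and 0.880 to 1.53 under early enzyme. In the genotype arm it had 1.6 to 8.24 in WT and 0.639 to 1.30 in KO at day 4.5, and 2.06 to 2.72 against 1.02 to 1.43 at day 7.5, with no overlap on either day. The day 4.5 values chose DYSF, so their ratios are a description and no further support. UTRN per 1000 CPM of markers was 4.48 to 5.56 under early enzyme and 3.53 to 4.93 untreated at day 7.5, which overlap. UTRN had a median of 131 CPM in WT at day 1.5, when the marker sum had a median of 124 CPM. Its ratio is therefore not a level per cardiomyocyte, and the part of cardiomyocyte content in its lower CPM was not tested.

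**Figure D4:**
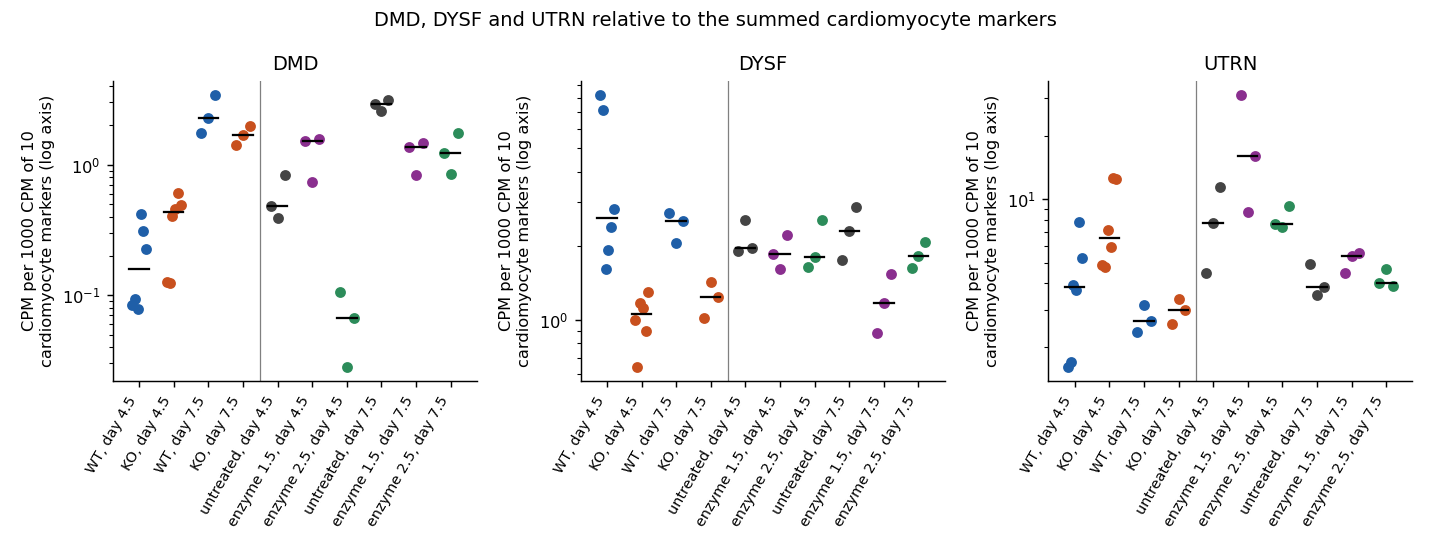
DMD, DYSF and UTRN in each library of days 4.5 and 7.5 as CPM per 1000 CPM of 10 summed cardiomyocyte markers (log axis), with group medians as bars and the genotype arm left of the grey line. DMD under late enzyme at day 4.5 (0.028 to 0.105) lies under the untreated and early enzyme libraries of that day, and DYSF of KO libraries lies under WT on both days. DMD was chosen by its late enzyme values and DYSF by its day 4.5 values.

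Markers of other cell types also moved with these comparisons. Under early enzyme at day 7.5 the summed level of 5 of 9 lists, cardiomyocyte markers included, lay below all untreated libraries. Without any difference, 3 libraries lie wholly apart from 3 others, in either direction, with a chance of 0.1 for each list. Smooth muscle markers had 457 to 706 CPM against 779 to 1702 CPM untreated (2 of 3 tested called lower, MYH11 at 0), and endoderm markers 62.6 to 71.7 CPM against 89.3 to 213 CPM (1 of 5 tested called lower by edgeR, AFP, which was at 0). Epicardial markers had 0.719 to 2.09 CPM against 5.35 to 28.9 CPM, with TBX18 and UPK3B at 0. Of the neural markers NES alone was detected in the treated libraries, at 529 to 634 CPM against a sum of 772 to 1243 CPM. Fibroblast markers had 658 to 1218 CPM against 399 to 1158 CPM and overlapped.

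At day 2.5 under early enzyme 6 of 9 lists lay below untreated, among them cardiomyocyte markers (1315 to 1486 CPM against 2847 to 3950 CPM, MYH6, MYH7 and ACTN2 at 0) and fibroblast markers (117 to 265 CPM against 387 to 659 CPM, DCN at 0). At day 4.5 smooth muscle markers had 37.2 to 108 CPM under early enzyme (MYH11 at 0) and 390 to 555 CPM under late enzyme against 553 to 1140 CPM untreated, the late range touching the untreated one, and TAGLN under late enzyme had log2 −2.58. The summed endothelial markers had 169 to 188 CPM under early and 194 to 224 CPM under late enzyme on that day, both above the untreated 125 to 160 CPM. Of these markers 3 were tested and 0 called in either comparison. Their median log2 fold change was −0.61 under early enzyme, opposite to the sum, and 0.467 under late enzyme. At day 7.5 the late enzyme libraries had 1442 to 1825 CPM of smooth muscle markers, which overlapped the untreated range, and 38.1 to 59.6 CPM of endoderm markers (FOXA2 and TTR at 0) and 0 to 5.24 CPM of epicardial markers (WT1 and UPK3B at 0), both below untreated.

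In the genotype arm at day 7.5, 4 of 9 lists lay above WT in KO, with no marker of them called. The chance of 0.1 per list holds only for interchangeable libraries. Here KO was cl4_R2, cl4_R3 and cl14_R1 of blocks B and C, and WT was WT_R1, WT_R2 and WT_TU_R2 of blocks A and B. Clone and block thus cannot be told apart from genotype, and that chance need not hold. The 4 lists were smooth muscle (1428 to 1503 CPM against 946 to 1268 CPM), endoderm (133 to 222 CPM against 70.5 to 111 CPM, SOX17 at 0 in WT), neural (NES alone, 1044 to 1153 CPM against 928 to 1020 CPM) and pluripotent cell markers (55.3 to 68.5 CPM against 46.8 to 50.8 CPM, NANOG at 0 in both). At day 4.5 the summed smooth muscle markers had 135 to 621 CPM in KO against 531 to 1689 CPM in WT, with 3 of 4 called lower. At day 2.5 the sum was 74.0 to 141 CPM against 149 to 245 CPM. On that day 0 of the 4 were called by edgeR and 1 by DESeq2. Their median log2 fold change was 0.207, opposite to the sum. The part of these lists in the DMD, DYSF and UTRN results was not tested.

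The other 17 genes of the dystrophin complex and its laminin ligands, of which 10 were tested, were followed across the same comparisons. Under early enzyme at day 7.5, 3 of 10 fell and 1 rose (median log2 −0.54, against 0.02 over all genes tested). LAMA2, the laminin chain that binds dystroglycan in muscle, had 7.67 to 21.6 CPM against 74.2 to 152 CPM untreated (log2 −3.24, edgeR adjusted p = 0.000435). SSPN, the sarcospan that sits among the sarcoglycans, had 2.88 to 7.67 CPM against 23.0 to 33.4 CPM (log2 −2.42, edgeR adjusted p = 0.041), and HSPG2, the matrix proteoglycan perlecan, had log2 −1.73 (edgeR adjusted p = 0.00486). DRP2, a smaller relative of dystrophin, rose from 4.47 to 17.8 CPM untreated to 21.6 to 64.8 CPM (log2 2.03, edgeR adjusted p = 0.0183). The LAMA2 call held in all 11 alternatives. DRP2 was lost in 5, which were a fit of these 6 libraries alone and those without the untreated library of line TNNI1 or WT or the treated library of line TNNI1 or TNNT2 (adjusted p 0.000322 to 0.134). SSPN was lost in 4, without the library of line TNNI1 in either group, the treated one of line WT or the untreated one of line TNNT2 (adjusted p 0.00234 to 0.162). HSPG2 was lost in the fit of 6 libraries alone (adjusted p = 0.0682, range 6.22e-09 to 0.0682).

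During differentiation the same list had 3 of 10 higher and 1 lower from day 1.5 to 2.5 in WT, where 30.1% of all genes were called (SGCA 2.76, SSPN 2.48, DTNA −1.08 and PLEC 0.61 on the log2 scale) and 5 higher and 1 lower from day 2.5 to 4.5, beside 34.5% of all genes, among them DRP2 (3.13), LAMA2 (1.98) and the alpha sarcoglycan gene SGCA (1.90). From day 4.5 to 7.5, the step at which DMD rose, LAMA2 (3.04) and the dystrobrevin gene DTNA (1.53) were higher, beside 2.7% of all genes. In untreated enzyme-arm libraries 2 were higher at day 4.5 (LAMA2 1.58 among them, 23% of all genes called) and 4 at day 7.5 (LAMA2 2.91, SGCA 2.34, DTNA 2.28 and HSPG2 1.87, 6.39% of all genes called), and none was lower. None of the 10 passed for KO against WT at days 1.5, 2.5 or 7.5 by edgeR or DESeq2 (1, 4 and 2 at an unadjusted p under 0.05), nor under early enzyme at day 2.5 (1 unadjusted, 0 by DESeq2). For the change of the early enzyme effect between days 2.5 and 7.5, DTNA (−2.67) and HSPG2 (−2.03) passed by edgeR, both lower, beside DMD. These were lost in 7 and 10 of 16 alternatives, each without 1 library (adjusted p up to 0.15 and 0.1).

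Of the 18 genes that build the laminin-binding glycan of dystroglycan, 16 were tested in the enzyme arm and 17 in the genotype arm. None passed under early enzyme at day 7.5 (0 unadjusted and 0 by DESeq2, median log2 0.08), the day on which LAMA2 fell. In WT 2 of 17 rose and 3 fell from day 1.5 to 2.5, a share near the 30.1% of all genes, among them LARGE2 (log2 −3.90), a glycosyltransferase that extends the laminin-binding chain, and GMPPB (−0.99). From day 2.5 to 4.5, 2 rose and 1 fell, among them B4GAT1 (0.91) and GMPPB (−1.31), fewer than the 34.5% of all genes. In untreated enzyme-arm libraries POMGNT1 rose (1.47) and POMT2 fell (−1.19) at that step, where 2 of 16 rose and 1 fell beside 23% of all genes. B4GAT1 rose at day 7.5 in untreated libraries (1.38).

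Of 21 membrane repair and ferlin genes, 16 were tested in the enzyme arm and 18 in the genotype arm. Under early enzyme at day 7.5, 3 fell and none rose (median log2 −0.27): S100A10 (−3.88, edgeR adjusted p = 0.00262) and ANXA2 (−1.97, edgeR adjusted p = 0.0122), which form 1 annexin complex at the membrane, and ANXA6 (−1.11, edgeR adjusted p = 0.00199), an annexin that gathers at membrane wounds. ANXA2 had 7.67 to 26.1 CPM under early enzyme against 25.0 to 105 CPM untreated, groups that overlapped, and its call was lost in the fit of these 6 libraries alone, without either library of line WT and without the treated library of line TNNT2 (adjusted p 1.63e-08 to 0.151). ANXA6 was lost in the fit of 6 libraries alone (adjusted p = 0.0598, range 1.56e-06 to 0.0598), and S100A10 held in all 11 alternatives. At day 2.5 MYOF, the ferlin most like dysferlin, was the 1 gene of the 16 that passed (log2 −1.79, edgeR adjusted p = 0.0419), with 10.4 to 18.5 CPM against 32.2 to 51.6 CPM untreated. This call was lost without any 1 of the treated libraries or of the untreated libraries of lines TNNI1 and TNNT2 (adjusted p 3.34e-05 to 0.199). In KO against WT at day 7.5 ANXA2 was the 1 of 18 that passed (log2 −1.74, edgeR adjusted p = 0.000105), with 10.4 to 23.9 CPM in KO and 50.2 to 69.2 CPM in WT, and held in all 12 alternatives. Its change from day 2.5 also passed (−1.61, edgeR adjusted p = 0.00644), and was lost without WT_TU_R2 or cl4_R2 of day 7.5 (adjusted p 0.00033 to 0.105).

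At the WT step from day 1.5 to 2.5, 6 of these 18 rose and 1 fell, beside 30.1% of all genes called, led by AHNAK (3.09) and ANXA1 (−3.08), and then MYOF (2.62) and FER1L5 (2.56) on the log2 scale. From day 2.5 to 4.5, the step at which DYSF rose most, 5 rose and 6 fell beside 34.5% of all genes: CAPN3 (3.72), the muscle calpain that is linked to dysferlin in repair, was higher, and EHD2 (−3.47), AHNAK (−2.61) and S100A10 (−2.40) were lower. In untreated libraries 1 of 16 rose and 4 fell at that step, beside 23% of all genes (ANO5 2.31, EHD2 −2.70, ANXA2 −1.65 and AHNAK −1.32). None passed from day 4.5 to 7.5 in WT (5 at an unadjusted p under 0.05, 0 by DESeq2).

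Among 8 caveola genes, the list that CAV3 belongs to by function, CAVIN1, the coat protein of caveolae, was the 1 of 7 tested that fell under early enzyme at day 7.5, from 40.2 to 151 CPM untreated to 0 to 4.08 CPM (log2 −5.38, edgeR adjusted p = 0.000473, held in all 11 alternatives). It had risen from day 4.5 to 7.5 in untreated libraries (3.36), and the change of the enzyme effect from day 2.5 passed as well (−5.28, lost without the treated day 2.5 library of line WT, edgeR adjusted p = 0.0587, range 2.85e-09 to 0.0587). From day 1.5 to 2.5 in WT, 2 of 8 rose and 5 fell beside 30.1% of all genes, led by CAVIN2 (5.52), CAV1 (−3.31), CAVIN1 (−2.54) and CAV2 (−1.84), the nonmuscle caveolins among them. From day 2.5 to 4.5, 2 rose and 1 fell, near the 34.5% of all genes.

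**Figure D5:**
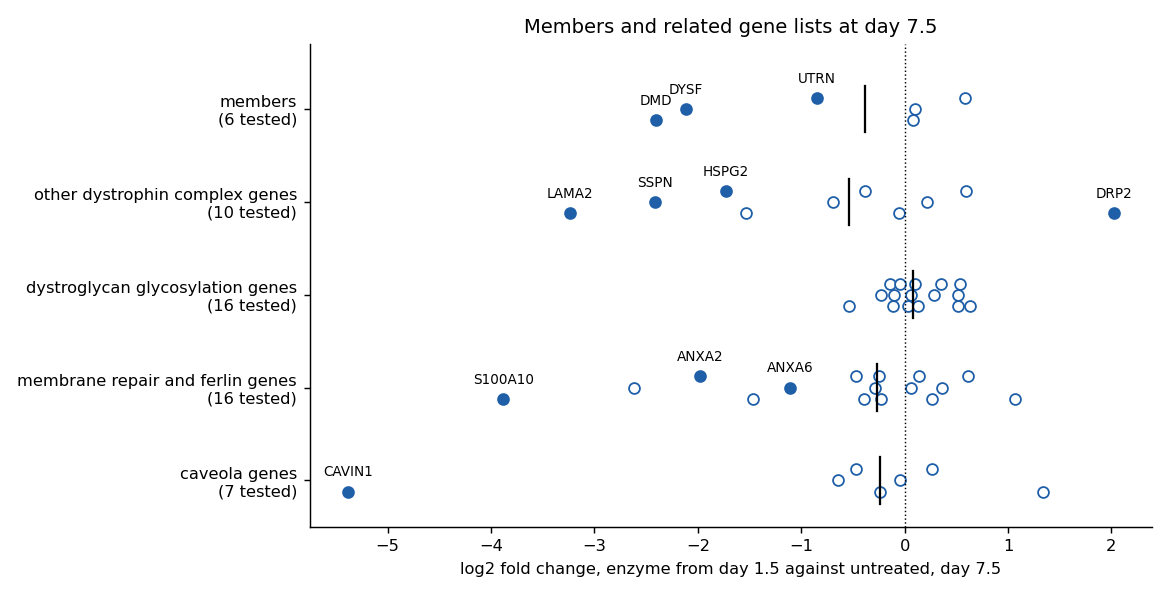
Log2 fold changes of early enzyme against untreated at day 7.5 for the 6 genes tested and for 4 related lists, 1 circle per gene, with genes past an adjusted p of 0.05 filled and named and list medians as bars. The glycosylation genes have no filled circle, and CAVIN1 (−5.38), S100A10 (−3.88) and LAMA2 (−3.24) lie furthest left.

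In the comparisons that chose the genes, the same related genes are given as values only. LAMA2 had 0 to 5.19 CPM under early enzyme at day 4.5 against 9.77 to 29.3 CPM untreated, and 0.712 to 7.94 CPM in KO against 5.93 to 28.2 CPM in WT. ANXA6 had 193 to 222 CPM against 492 to 689 CPM, and 279 to 517 CPM against 599 to 1319 CPM, so that neither arm overlapped for it. ANXA2 had 11.1 to 28.5 CPM under early enzyme against 70.2 to 101 CPM untreated, and 12.8 to 23.2 CPM in KO against 50.1 to 112 CPM in WT, also with no overlap. S100A10 had 6.98 to 12.4 CPM against 16.4 to 93.2 CPM, and 3.05 to 15.1 CPM in KO against 12.6 to 33.6 CPM in WT, where the genotypes overlapped.

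The genes whose group means were most like those of DYSF over the 16 groups, by Pearson correlation of mean log2 CPM among 12566 genes, were HACD1 (r = 0.977), RNF207 (0.977), CRYAB (0.975) and TNNC1 (0.975). For DMD they were LINC02082 (0.955), MLIP (0.952), TXLNB (0.941) and PRSS35 (0.933). Between the members the correlation over the 16 groups was 0.629 for DMD with DYSF, 0.65 for DYSF with UTRN and 0.158 for DMD with DAG1. The 16 points share lines, days and library numbers, and are given as a description.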

How the data were processed

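Gene expression was measured by QuantSeq FWD, which primes at the 3′ ends of mRNA, with single-end NovaSeq reads, per the labels' protocols. The deposited table holds whole-number read counts per Ensembl gene, made by the authors with featureCounts (Subread 1.6.2) on GRCh38 per the submitters' processing notes. The aligner, the strand setting, the handling of multimapping reads and any use of molecular identifiers are not given in the sources used here, so counts of overlapping genes are uncertain. The table has 4 further columns of no listed sample, which were not used. All 58735 gene IDs occur in GENCODE 29.

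CPM is a gene's share of its library's total counts, times 1000000. Tests used edgeR 4.0.16 in R 4.3.3: filterByExpr (minimum count 10), TMM factors and a robust quasi-likelihood fit in which each group of an arm has its own mean (13797 genes in the genotype arm, 12748 in the enzyme arm). Two-sided p-values were corrected (Benjamini-Hochberg) across every gene in the fit, and a gene was called at an adjusted p under 0.05. Log2 fold changes have standard errors and 95% intervals from this fit. Groups said not to overlap are a description: with 3 interchangeable libraries against 3, this has a chance of 0.1 for a gene without any difference. Libraries that share a line, clone or block are not fully interchangeable. The pipeline was tested on simulated data. Samples were grouped by their titles. Among 115 replicate pairs the chi-square of counts was 2.1 to 81.5 per degree of freedom, where counting noise alone gives about 1, and no pair was identical. Total counts set the precision of low values, and floors cover counting error only, since PCR reads are not independent molecules.

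In the enzyme arm the replicate number stands for 1 cell line in every group, per the titles, and pairs the samples. Deviations from group means of same-line libraries correlated above 0.1 in 43 of 84 pairs (lowest −0.425). Genotype-arm libraries of the same line or clone and R number pair across days likewise (38 of 51 pairs, lowest −0.158). Alternatives were RLE size factors, no filter, DESeq2 1.42.0, only the groups compared, replicate blocks, leaving out each library, and leaving out block A, which was chosen after the data were seen.

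The 8 members and the lists of related genes and markers were chosen with earlier results of these data known. Beside the members, at most the 4 genes of a list with the largest absolute log2 fold change among those with an adjusted p under 0.05 were named per comparison, and the 4 genes most like DYSF and DMD over the 16 groups (CAV3 did not pass the filter). At day 4.5, LAMA2, ANXA6, ANXA2 and S100A10 are genes of this rule shared by both arms. Some genes of the lists are counted but not reported here by name. Promoters are from RefSeq.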

Additional observations from a re-analysis of the deposited data

Results flagged for a closer look

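In groups of 4 to 10 libraries, 40 sets of CPM values of the 8 genes were searched for a library far from the others, and 6 were found. Chance alone would mark about 1 in 20 groups of normally distributed values. That rate does not hold for SGCD. There 1 library with counts among libraries at 0 is always marked, as in WT at days 1.5 and 4.5. DMD had 26.3 CPM in WT_TU_R2 at day 4.5, the highest of 6 WT libraries. UTRN had 17.9 CPM in cl4_R1 at day 1.5, the lowest of 6 KO libraries and 1 of the 7 deepest. SGCB had 20.7 CPM in cl51_R1 at day 2.5, the highest of 6 KO libraries. SGCD stood out in WT_TU_R1 at day 1.5 (0.301 CPM), cl4_R1 at day 2.5 (4.81 CPM) and WT_TU_R2 at day 4.5 (0.626 CPM), where it had at most 4 counts in a library.

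The early enzyme effect on DMD differed between day 2.5 and day 7.5 by −2.69 on the log2 scale in the test of the difference itself (edgeR adjusted p = 0.0292), with the alternatives given in the report. The call was lost in several of these. It also shares the untreated day 7.5 libraries with the late enzyme comparison that chose DMD.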

How the results depend on the processing

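In the comparisons that did not choose the genes, the 13 calls of single members were recomputed in 184 alternatives, of which 163 kept the call, 21 lost it and 0 reversed. Of 59 uncalled pairs of a member and such a comparison, 9 were called in at least 1 alternative, and 25 changed sign in at least 1. For the 138 calls of named genes of the other lists there, 1817 of 2003 alternatives kept the call, 186 lost it and 0 reversed. Most of the 13 member calls use day 4.5 or untreated day 7.5 libraries of the comparisons that chose DYSF and DMD. The member tallies are thus not independent of that choice. The number of members called changed as follows. From day 4.5 to 7.5 in WT it was 2 with RLE size factors, 3 with DESeq2, 3 with line and R number as a replicate block and 2 without block A, and 1 to 2 without single libraries. Without block A it was 4 from day 2.5 to 4.5 in WT and 1 for KO against WT at day 7.5, where a fit of only these groups also gave 1. From day 4.5 to 7.5 untreated it was 2 with no filter, 2 with only the groups compared, 2 with DESeq2 and 1 to 3 without single libraries. Without single libraries it ranged from 1 to 3 from day 1.5 to 2.5 in WT and 0 to 1 for the change of the early enzyme effect. In the comparisons that chose the genes, the counts are fixed in part by that choice and are given as a description only. With no filter they were 2 for early enzyme at day 4.5, 2 for early against late enzyme at day 4.5 and 1 for the same at day 7.5. With only the groups compared they were 2 for early enzyme at day 4.5, 0 for late enzyme at day 7.5 and 0 for early against late enzyme at day 4.5. Without single libraries they were 1 to 2 for KO at day 4.5, 0 to 1 for early enzyme at day 4.5, 0 to 1 for late enzyme on either day and 0 to 2 for early against late enzyme at day 4.5.

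Counts over all genes moved more. Early against untreated gave 146 at day 2.5 (61 to 290 over the alternatives), 443 at day 4.5 (199 to 662) and 425 at day 7.5 (145 to 713). Late against untreated gave 28 at day 4.5 (0 to 201) and 84 at day 7.5 (3 to 377), and early against late 46 (2 to 296) and 1 (1 to 80). KO against WT gave 137 at day 2.5 (66 to 292), 516 at day 4.5 (212 to 899) and 48 at day 7.5 (27 to 193). The WT steps gave 4153 to day 2.5 (2736 to 5319) and 372 to day 7.5 (138 to 758), and the untreated step to day 7.5 gave 814 (276 to 1957). The change of the KO effect gave 37 (20 to 156) and that of the early enzyme effect 144 (62 to 445). The cause was not tested. In the enzyme arm, line as a replicate block changed no call of a member. With this block the counts over all genes were 228 for early enzyme at day 2.5, 55 and 132 for late enzyme at days 4.5 and 7.5, 96 and 13 for early against late enzyme, and 263 for the change of the early enzyme effect. KO and WT share only library numbers: with these as a replicate block no call of a member changed. Depth limits SGCD, CAV3 and the DMD counts of late enzyme at day 4.5.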
